A study of Mus musculus with 12 samples.

Results

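The genes described here carry out antigen presentation on MHC class II molecules, with Siglech, a lectin receptor gene of plasmacytoid dendritic cells, beside them. The 10 genes are Cd74, H2-Aa, H2-Ab1, H2-Eb1, H2-DMa, H2-DMb2, H2-Oa, H2-Ob, Ciita and Siglech, chosen by name out of 18193 measured genes. They were measured by 20 probe sets whose only annotated symbol was one of these names, out of 45037 probe sets in all. H2-Aa had 4 of them, H2-Ab1, H2-DMb2 and Ciita had 3 each, H2-DMa had 2, and the other 5 genes had 1 each. Lung and liver were taken from female NOD/SCID mice, aged 8 to 10 weeks when experiments began, that were either virgin or at day 16 of pregnancy. Each of the 4 groups (virgin lung, pregnant lung, virgin liver, pregnant liver) held 3 one-colour arrays, and each array measured RNA pooled from 2 mice. All groups carried the NOD background and the SCID mutation, which leaves mice without mature T and B cells. Whole organs were ground, so fewer cells of a type and less RNA per cell cannot be told apart, and no value belongs to a single mouse.

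Class II molecules are pairs of an alpha and a beta chain that hold peptides from engulfed proteins for recognition by CD4 T cells. The chains assemble in the endoplasmic reticulum around the invariant chain, the product of Cd74, which blocks the groove and guides the complex to endosomes. There H2-DM helps to exchange the remnant of the invariant chain for a peptide, and H2-O restrains H2-DM. Dendritic cells, macrophages and B cells carry most class II in the body, and alveolar type II cells of the lung carry it as well. The class II transactivator, the product of Ciita, switches the whole set on through factors bound to short conserved promoter boxes, and interferon-gamma raises Ciita. NOD mice carry their own H2-A alleles and make no E alpha chain, so that no complete E molecule reaches their cell surface. Probe sets were designed on other strains, and how well they bind NOD transcripts was not tested.

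The conserved boxes are shown because they are what these genes are known to share in their control regions. RefSeq promoter windows of GRCm38.p6, from 250 bases before to 50 bases after the gene start, matched 7 of the 10 genes. They come from the C57BL/6J reference, not from NOD mice. The letters TGATTGG, of the Y box bound by the factor NF-Y, stood on the gene strand in 5 of these 7, those of H2-Aa, H2-Eb1, H2-DMb2, H2-Oa and H2-Ob. The letters AACNNATG, of the X box bound by RFX, stood before it in 3 of them. Both motifs were chosen after the sequences were seen. Below, capitals mark TGATTGG and AACNNATG on the gene strand, read 5′ to 3′.
H2-Aa (chr17:34287847-34287923, minus strand): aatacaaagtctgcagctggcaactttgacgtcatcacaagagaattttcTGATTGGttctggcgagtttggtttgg
H2-Eb1 (chr17:34305756-34305832, plus strand): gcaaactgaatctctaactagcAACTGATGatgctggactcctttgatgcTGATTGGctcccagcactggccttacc
H2-DMb2 (chr17:34145107-34145183, plus strand): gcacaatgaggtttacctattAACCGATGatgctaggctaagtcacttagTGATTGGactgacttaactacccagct
H2-Oa (chr17:34092284-34092360, plus strand): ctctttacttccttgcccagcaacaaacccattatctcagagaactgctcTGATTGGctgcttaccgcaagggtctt
H2-Ob (chr17:34238796-34238872, plus strand): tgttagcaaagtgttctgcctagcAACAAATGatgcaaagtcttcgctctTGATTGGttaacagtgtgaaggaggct

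The Y box letters began 50 bases before the gene start in H2-Aa, 61 in H2-Eb1, 92 in H2-DMb2, 45 in H2-Oa and 59 in H2-Ob. The gap between the X and Y letters was 20 bases in H2-Eb1, 21 in H2-DMb2 and 18 in H2-Ob. On either strand, TGATTGG was found in 7.82% and AACNNATG in 8.86% of 32851 promoter windows of this length. The ordered arrangement on the gene strand, with at most 30 bases between, was found in 0.0365% of them, or 12 windows. Besides the 3 genes above, these 12 held H2-DMb1, H2-Eb2 and BC051142 of chromosome 17, G3bp2 of chromosome 5 and 5 predicted gene models of chromosome 16. Neither string stood in the windows of H2-DMa and Siglech. The class II genes lie along chromosome 17 in the order H2-Oa, H2-DMa, H2-DMb2, H2-DMb1, H2-Ob, H2-Ab1, H2-Aa, H2-Eb1. The class I processing genes Psmb9, Tap1, Psmb8 and Tap2 stand between H2-DMb1 and H2-Ob. Ciita lies on chromosome 16 and Siglech on chromosome 7.

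Array medians lay between 4.49 and 4.56 on the log2 scale. Arrays of the same group correlated at 0.992 to 0.996 over all probe sets, and lung with liver arrays at 0.840 to 0.853. The spike-in RNA added before labelling gave a mean log2 level of 10.8 to 11.3 on 10 arrays. Its mean was only 4.68 for pool 3 of virgin liver and 5.01 for pool 3 of pregnant liver, close to the array medians. No label marks these 2 arrays as a batch. For the 10 genes and for the named list genes called in liver other than Sppl2a, the effect of leaving both arrays out is given as well. The hepatocyte list had a mean level of 13.7 to 13.8 in liver against 5.33 to 5.77 in lung, and the alveolar type II list 12.2 to 12.4 in lung against 5.69 to 5.84 in liver. Of 10 measured B cell markers 5 lay below 4.53, the median of all probe sets, in virgin lung, virgin liver and pregnant liver, and 6 did in pregnant lung. Ms4a1, Blk, Cr2 and Fcer2a were among them in every group.

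Without pregnancy, the class II genes were far higher in lung than in liver. By their brightest probe sets, the genes for the invariant chain, for the classical alpha and beta chains and for H2-DM alpha were 4.48-fold to 6.30-fold higher. Of the 10 genes 8 were higher in virgin lung by limma with Benjamini-Hochberg adjustment over all genes, 0 were lower and 2 did not pass. In this comparison 34.3% of all genes passed as higher, 34.4% as lower and 68.7% in either direction. The median log2 difference of the 10 genes was 1.73, against -0.07 over all genes. No pool of virgin liver reached the level of any pool of virgin lung for 9 of the 10 genes, where 73.2% of all genes had groups of pools that did not overlap, and 37.4% had lung lower. Over the 20 probe sets, 16 were called higher, against 55.9% called in either direction among all probe sets. The pools did not overlap for 17, all with lung higher, against 63.5% of all probe sets in either direction and 35.1% with lung lower. With both liver pool 3 arrays left out, the same 8 genes were called, with adjusted p from 5.5e-09 to 0.00343. Cell markers differed as well: all 11 leukocyte genes were called higher in virgin lung (median 2.23), as were 14 of 17 conventional dendritic cell genes (median 1.05), with 2 lower, and 6 of 13 macrophage and monocyte genes (median 0.09), with 5 lower. The part of cell content in the class II difference was not tested.

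Cd74 had log2 levels of 12.29, 12.36 and 12.63 in the virgin lung pools and 9.63, 10.02 and 9.97 in the virgin liver pools. This made a log2 difference of 2.55 ± 0.20 (SE, n = 3, limma, adjusted p = 2.83e-08). H2-Aa, the alpha chain gene of the H2-A molecule, differed by 2.66 ± 0.21 (adjusted p = 4.11e-08), and its beta chain gene H2-Ab1 by 2.47 ± 0.23. H2-Eb1, the beta chain gene of the E molecule, differed by 2.31 ± 0.20. H2-DMa, the alpha chain gene of the peptide exchange factor, differed by 2.16 ± 0.19 (adjusted p = 1.41e-07). The differences of these 5 genes thus lay between 2.16 and 2.66.

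The H2-O genes, whose products are known mainly from B cells, thymus and some dendritic cells, had estimated differences below those of the genes above. H2-Ob differed by 1.30 ± 0.16 (log2, SE, limma adjusted p = 4.81e-06) and H2-Oa by 0.90 ± 0.18 (adjusted p = 0.000378). In virgin liver the mean level was 3.33 for H2-Ob and 4.16 for H2-Oa, both below the median of all probe sets. A signal over background is not established there, so the true size of these differences is not known. A probe set annotated to both H2-Ob and Gm20506 had the opposite sign, at -0.25 ± 0.12 (adjusted p = 0.0839 over all probe sets). Its mean levels of 3.58 in virgin lung and 3.83 in virgin liver were also below the median of all probe sets. Siglech differed by 0.67 ± 0.16 (adjusted p = 0.00166), from 5.22 ± 0.05 in virgin liver to 5.89 ± 0.12 in virgin lung (SD, n = 3).

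Ciita, H2-DMb2 and H2-DMa, like H2-Ob, depended on the probe set. The brightest Ciita probe set differed by 0.40 ± 0.19 between virgin lung and liver and did not pass (adjusted p = 0.0799). The second Ciita probe set differed by 0.92 ± 0.14 (adjusted p = 5.38e-05 over all probe sets), and the third, at log2 levels of 2.80 and 3.05, by -0.25. The brightest probe set named for H2-DMb2 alone was level between the tissues, with a difference of 0.03 and a 95% interval from -0.20 to 0.25. Its other probe sets were higher in lung by 0.91 and 0.42 (adjusted p = 0.000698 and 0.0205). The brighter probe set annotated to both H2-DMb1 and H2-DMb2, which encode close copies of the H2-DM beta chain, was higher in lung by 2.63 ± 0.16 (adjusted p = 1.48e-09). This difference was close to that of H2-DMa, but the array cannot divide it between the copies.

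**Figure D1:**
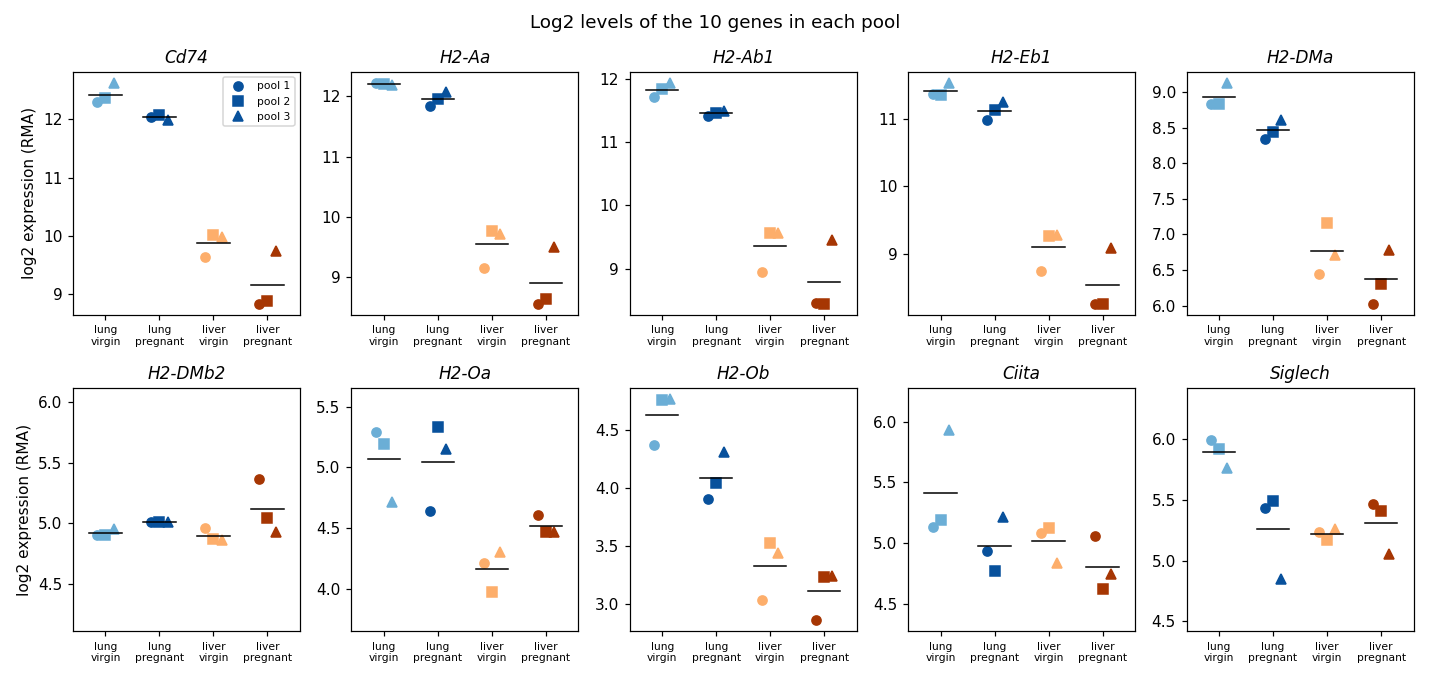
Log2 level (vertical axis, RMA value) of each of the 10 genes in the 4 groups, with 1 marker per pool and a bar at the group mean; each panel has its own scale. Cd74 ranged from 11.99 to 12.63 in lung and from 8.83 to 10.02 in liver, and pregnant liver pool 3 (triangle) sat above the other pregnant liver pools for the first 5 genes.

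In lung, class II genes were lower in pregnant than in virgin pools by small amounts, and none passed the test. Of the 10 genes 0 were called in either direction (limma, adjusted over all genes), where 0.594% of all genes were called, 0.258% as higher and 0.335% as lower. At an unadjusted p under 0.05 there were 4 (H2-DMa, H2-Ob, Ciita and Siglech, all with a negative difference), against 9.87% of all genes. Array weights called 1, Siglech. The difference was negative for 9 of the 10 genes, against 52.5% of all genes, and its median was -0.38, against -0.01 over all genes. Every pregnant pool lay below every virgin pool for 7 genes, against 10.4% of all genes, and above for 1, H2-DMb2, where 18.4% of all genes did not overlap in either direction. The 7 were Cd74, H2-Aa, H2-Ab1, H2-Eb1, H2-DMa, H2-Ob and Siglech.

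Among the genes of the presenting molecule, Cd74 had levels of 12.04, 12.07 and 11.99 in pregnant lung against 12.29, 12.36 and 12.63 in virgin lung. All pregnant pools were thus below all virgin pools, with virgin pool 3 the highest. The difference was -0.39 ± 0.20 (log2, SE, n = 3, limma adjusted p = 0.556), or 1.31-fold lower, with a 95% interval from -0.81 to 0.03. H2-Aa had 12.22, 12.20 and 12.19 in virgin and 11.83, 11.94 and 12.07 in pregnant lung. The SD of its virgin pools was 0.02, and its difference was -0.25 ± 0.21 (adjusted p = 0.81). H2-Ab1 had 11.72, 11.84 and 11.94 in virgin against 11.42, 11.46 and 11.49 in pregnant lung. Its difference of -0.38 ± 0.23 did not pass either (adjusted p = 0.663). H2-Eb1 had 11.37, 11.34 and 11.53 in virgin and 10.99, 11.13 and 11.25 in pregnant lung, a difference of -0.29 ± 0.20 (adjusted p = 0.722).

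The further probe sets of these genes gave like differences in lung. Those of H2-Aa had -0.24, -0.31 and -0.42, the last at mean levels of 3.51 and 3.09, too low to establish a signal over background. Those of H2-Ab1 had -0.37 and -0.44. In all, 19 of the 20 probe sets had a negative difference in lung, 13 of them with every pregnant pool below every virgin pool, against 8.32% of all probe sets. In 1 more the pools did not overlap in the other direction, against 15.6% of all probe sets in either direction, and 0 were called, against 0.213%. Probe sets of the same gene measure the same pools and are not independent. The standard errors come from a spread shared by all 4 groups, and the liver pools spread more than the lung pools for these genes. The SD of Cd74 was 0.18 and 0.04 in virgin and pregnant lung but 0.21 and 0.51 in virgin and pregnant liver. When the 6 lung arrays were fitted alone, the adjusted p of Cd74 was 0.14, that of H2-Ab1 0.106 and that of H2-Aa 0.251.

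Among the peptide editing genes, H2-DMa had 8.84, 8.83 and 9.13 in virgin and 8.34, 8.45 and 8.60 in pregnant lung. Its pools did not overlap, and its difference was -0.47 ± 0.19 (adjusted p = 0.401). The probe set shared by H2-DMb1 and H2-DMb2 had 9.05, 8.91 and 9.05 in virgin against 8.56, 8.72 and 8.79 in pregnant lung. Its pools did not overlap, with a difference of -0.32 ± 0.16 (adjusted p = 0.751 over all probe sets). H2-DMb2 by its own brightest probe set had 4.91, 4.91 and 4.96 in virgin lung and 5.01 in each pregnant pool. That difference of 0.09 ± 0.10 did not pass (limma adjusted p = 0.896). The other H2-DMb2 probe sets had -0.21 and -0.34, and the mean of all its probe sets -0.16, none of which passed. H2-Ob, the beta chain gene of the H2-DM inhibitor, had 4.37, 4.76 and 4.76 in virgin and 3.90, 4.04 and 4.31 in pregnant lung. Its difference was -0.55 ± 0.16 (adjusted p = 0.189), and its pregnant mean of 4.08 lay below the median of all probe sets. The probe set shared by H2-Ob and Gm20506, at mean levels of 3.58 and 3.59, had overlapping pools and a difference of 0.005 ± 0.12. The alpha chain gene H2-Oa had overlapping pools, 5.29, 5.19 and 4.72 against 4.64, 5.33 and 5.15, and a difference of -0.02 ± 0.18, which turned positive without virgin pool 1 or 2 or pregnant pool 1 (0.088, 0.038 and 0.18).

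Ciita, the master switch gene of class II, had 5.13, 5.19 and 5.93 in virgin and 4.94, 4.77 and 5.22 in pregnant lung by its brightest probe set. Virgin pool 3 stood above the others and the groups overlapped. The difference was -0.44 ± 0.19 (limma adjusted p = 0.459), and -0.18 without virgin pool 3. The second Ciita probe set, by contrast, had groups that did not overlap, with 5.45, 5.19 and 5.54 in virgin and 4.84, 4.83 and 4.90 in pregnant lung. Its difference was -0.54 ± 0.14 (adjusted p = 0.189 over all probe sets).

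Siglech had the largest lung difference of the 10 genes. Its levels were 5.99, 5.92 and 5.76 in virgin and 5.43, 5.49 and 4.85 in pregnant lung, with pregnant pool 3 the lowest. The difference was -0.64 ± 0.16 (1.55-fold lower, limma adjusted p = 0.102), and -0.43 without pregnant pool 3. Array weights brought it past the threshold (adjusted p = 0.0359). Of 14 other measured markers of plasmacytoid dendritic cells, 0 were called and 10 had a positive lung difference, against 47.5% of all genes. Their mean level was 6.49 to 6.53 in virgin and 6.50 to 6.67 in pregnant lung. Ly6d, Pacsin1, Ccr9 and Tlr9 were below the median of all probe sets in virgin lung, and these and Spib in pregnant lung. Klra17, an inhibitory receptor gene of these cells named after its values were seen, had 6.87 in virgin and 7.08 in pregnant lung. The 4 markers with a negative difference were Spib (4.91 in virgin and 4.51 in pregnant lung), Ccr9 (3.59 and 3.40), Zeb2 (7.54 and 7.38) and Ly6d (4.25 and 4.18).

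**Figure D2:**
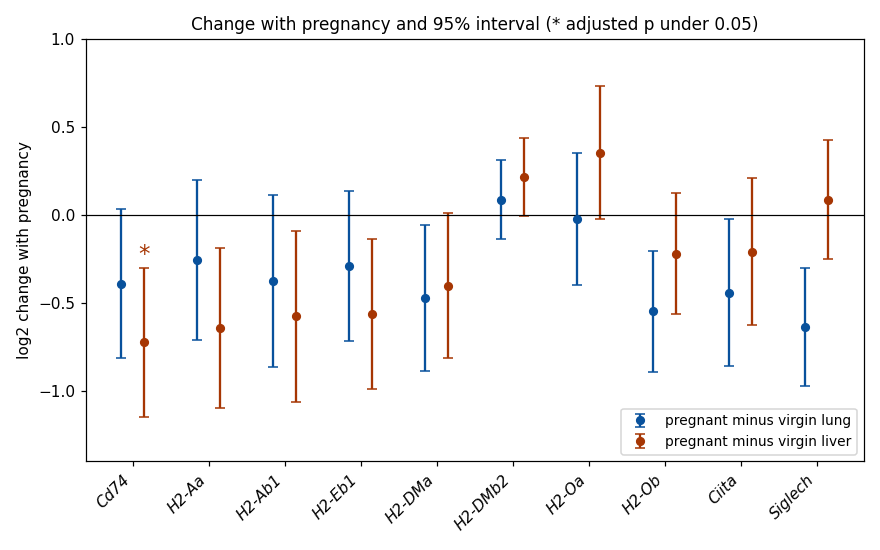
Log2 change with pregnancy (vertical axis) for each of the 10 genes in lung (blue) and liver (brown), points for the limma estimate and bars for its 95% interval. Only Cd74 in liver, at -0.72, carries the star of an adjusted p under 0.05; the estimates of the 4 presenting genes lie between -0.25 and -0.39 in lung and between -0.56 and -0.72 in liver.

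In liver, Cd74 fell with pregnancy and the chain genes beside it had differences nearly as large that did not pass. Of the 10 genes 1 was called lower, where 7.62% of all genes were called lower and 13.6% in either direction, and 0 were called higher, against 6.02%. That share is close to the background. No gene had all pregnant pools below all virgin pools, against 15.3% of all genes, and 1, H2-Oa, had them all above, against 28% in either direction. Of the 20 probe sets 1 was called, against 8.16% of all probe sets. The pools did not overlap for 2, both with pregnant liver higher, against 22.6% in either direction and 11.8% with pregnant liver lower. The median difference was -0.31, against -0.01 over all genes, with 7 negative and 3 positive. Cd74 had 9.63, 10.02 and 9.97 in virgin and 8.83, 8.88 and 9.74 in pregnant liver. Pregnant pools 1 and 2 were below every virgin pool, and pregnant pool 3 lay within the virgin range. Cd74 fell by 0.72 ± 0.20 on the log2 scale (SE, n = 3, limma adjusted p = 0.0253), or 1.65-fold. The call was lost without virgin pool 2 (adjusted p = 0.0908), virgin pool 3 (0.0816), pregnant pool 1 (0.103) or pregnant pool 2 (0.0995), and with the liver arrays fitted alone (0.0924).

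H2-Aa had 9.15, 9.77 and 9.72 in virgin and 8.56, 8.65 and 9.50 in pregnant liver, a difference of -0.64 ± 0.21 (limma adjusted p = 0.0602). H2-Ab1 had 8.95, 9.57 and 9.57 against 8.46, 8.45 and 9.45, a difference of -0.58 ± 0.23 (adjusted p = 0.115). H2-Eb1 had 8.75, 9.27 and 9.28 against 8.27, 8.27 and 9.09, a difference of -0.56 ± 0.20 (adjusted p = 0.0794). In each of them pregnant pools 1 and 2 were lowest, virgin pool 1 was lower than the other virgin pools, and pregnant pool 3 lay among the virgin values. H2-DMa showed the same order at lower levels, with 6.44, 7.16 and 6.71 in virgin and 6.03, 6.30 and 6.78 in pregnant liver. Its difference was -0.40 ± 0.19 (adjusted p = 0.201). The second H2-DMa probe set, at mean levels of 4.51 in virgin and 4.85 in pregnant liver, went the other way. It had 0.33, which did not pass (adjusted p = 0.243 over all probe sets). Over all 10 genes, pregnant pools 1 and 2 were below every virgin pool for 5, against 23.1% of all genes.

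Pregnant liver pool 3 stood apart from the other pregnant liver pools. It stood 0.89 above the mean of pregnant pools 1 and 2 for Cd74 (log2), 0.89 for H2-Aa, 0.99 for H2-Ab1, 0.83 for H2-Eb1 and 0.62 for H2-DMa. Its array is 1 of the 2 with low spike-in signal. Virgin pool 3, which shares this trait, stood above the mean of the other virgin pools by 0.15 for Cd74, 0.26 for H2-Aa, 0.31 for H2-Ab1 and 0.27 for H2-Eb1. For H2-DMa the same difference was -0.09. Within pools 1 and 2 the change was -0.97 for Cd74, -0.85 for H2-Aa, -0.80 for H2-Ab1, -0.75 for H2-Eb1 and -0.64 for H2-DMa. Within pool 3, with 1 array per state and no test, it was -0.23, -0.22, -0.12, -0.19 and 0.07 for the same genes. With both pool 3 arrays left out, a setting added after the data were seen, limma called 4 of the 10 genes lower, Cd74 (adjusted p = 0.00139), H2-Aa (0.00733), H2-Ab1 (0.00952) and H2-Eb1 (0.0109). With the pool 3 arrays as a batch term the same 4 were called (adjusted p = 0.00624, 0.0155, 0.0292 and 0.0204). Without pregnant pool 3 alone 5 were called, those 4 and H2-DMa (adjusted p = 0.0428), and without virgin pool 1 the same 4. The share of all genes called in these fits is not given. Whether these counts exceed the background is therefore not known. Of 169 genes on the pathway and marker lists, 21 were called with all arrays, no larger a share than the 13.6% of all genes. In the same 4 fits 22 were called with both pool 3 arrays left out, 23 with the batch term, 31 without pregnant pool 3 and 17 without virgin pool 1.

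**Figure D3:**
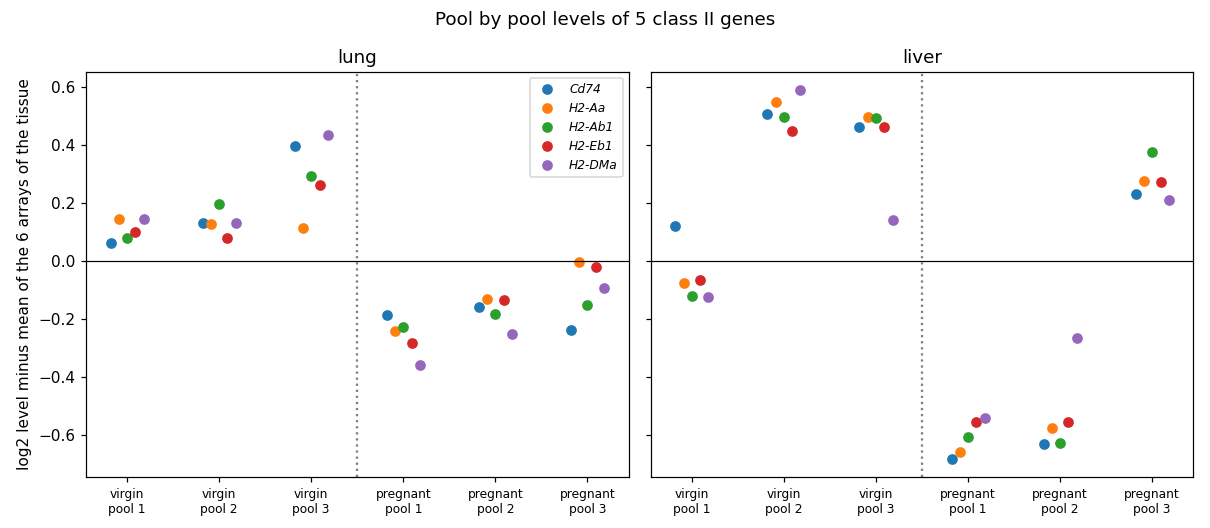
Log2 level of 5 class II genes on each array minus the mean of the 6 arrays of that tissue (vertical axis), virgin pools left and pregnant pools right of the dotted line. In lung every pregnant pool lies below zero for each gene; in liver pregnant pools 1 and 2 lie lowest, at -0.68 and -0.63 for Cd74, while pregnant pool 3 lies above zero, at 0.23 for Cd74.

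The remaining genes did not follow this pattern in liver. H2-Ob had 3.03, 3.52 and 3.44 in virgin and 2.86, 3.23 and 3.24 in pregnant liver, too low to establish a signal over background. The pools overlapped, with a difference of -0.22 ± 0.16. The probe set shared by H2-Ob and Gm20506 had 0.15 ± 0.12, and its pools overlapped too. H2-Oa had 4.22, 3.97 and 4.30 against 4.61, 4.47 and 4.47, with every pregnant pool above every virgin pool. The difference of 0.35 ± 0.18 did not pass (limma adjusted p = 0.215). Ciita had 5.09, 5.13 and 4.83 against 5.06, 4.62 and 4.74, a difference of -0.21 ± 0.19 (adjusted p = 0.546), and its second probe set had 0.08. Siglech had 5.23, 5.17 and 5.26 against 5.47, 5.41 and 5.05, a difference of 0.09 ± 0.16. H2-DMb2 by its own brightest probe set had 4.96, 4.87 and 4.86 against 5.37, 5.05 and 4.93, a difference of 0.22 ± 0.10 (adjusted p = 0.198). Its other probe sets had 0.14 and 0.16. The brighter probe set shared with H2-DMb1 did show the pattern, with 6.15, 6.64 and 6.34 against 5.85, 5.96 and 6.53. Its difference was -0.26 ± 0.16, and that of the dimmer shared probe set -0.30 ± 0.18. Neither passed (adjusted p = 0.4 and 0.378 over all probe sets). With both pool 3 arrays left out the differences were -0.23 for H2-Ob, 0.45 for H2-Oa, -0.27 for Ciita, 0.24 for Siglech and 0.29 for H2-DMb2, and none of the 5 passed (adjusted p from 0.127 to 0.543).

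Whether the 2 tissues differed in their change was tested as the lung change minus the liver change. Of the 10 genes 0 passed (limma; 6.71% of all genes did, 3.34% as higher and 3.37% as lower), nor did any of their 20 probe sets (3.42% of all probe sets did). The median over the 10 genes was -0.10. Lung and liver changes of Cd74 differed by 0.33 ± 0.28, with a 95% interval from -0.27 to 0.93 (adjusted p = 0.576). Those of H2-Aa differed by 0.39 ± 0.30, of H2-Ab1 by 0.20 ± 0.32 and of H2-Eb1 by 0.27 ± 0.28. These intervals are wide enough to hold a change as large in one tissue as in the other, or clearly smaller. Siglech had the largest difference, -0.72 ± 0.22 (95% interval from -1.20 to -0.25, adjusted p = 0.0714). It passed without pregnant lung pool 2 (0.0467) and without pregnant liver pool 3 (0.0322). Without pregnant liver pool 3, Cd74 passed as well, at 0.63 (adjusted p = 0.0482). With both liver pool 3 arrays left out 0 of the 10 passed, Cd74 having 0.58 (adjusted p = 0.0919) and Siglech -0.87 (0.0531).

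Other class II genes were few on the array. H2-Ea, the gene for the E alpha chain, had mean levels of 6.58 in virgin and 6.42 in pregnant lung and of 6.76 and 7.12 in liver. Its difference between virgin lung and liver was -0.18 ± 0.16 (limma adjusted p = 0.329). NOD mice make no E alpha chain, so that this probe set measured H2-Ea RNA is not established. H2-Eb2 had 5.41 and 5.27 in lung and 5.70 and 5.63 in liver. Neither passed in a pregnancy comparison with all arrays. H2-Ea in liver had a difference of 0.36 (adjusted p = 0.161), opposite in sign to Cd74 and the classical chain genes. The probe set was called higher with both liver pool 3 arrays left out, at 0.68 (limma adjusted p = 0.00297), and without pregnant pool 3 alone, at 0.59 (0.0053). H2-Eb2 had -0.06 in liver and -0.03 without both arrays.

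Genes of the class II transcription factors gave no call in lung. Of 12 measured (RFX and NF-Y subunits, Creb1, coactivators, Usf1 and Spi1), 0 were called there, with a median of 0.10. Nfya, an NF-Y subunit gene, had a difference of 0.34 (adjusted p = 0.148) and Creb1 one of 0.20 (0.473). In liver 2 of the 12 fell and 0 rose, where 7.62% of all genes were called lower and 6.02% higher. Nfyb, which encodes another NF-Y subunit, fell by 0.89 ± 0.10 (log2, SE, adjusted p = 4.53e-05). Rfxank, whose product is part of the RFX complex on the X box, fell by 0.62 ± 0.13 (adjusted p = 0.0046), but its probe set without a shared-sequence suffix had 0.17 (adjusted p = 0.459). Rfx5 itself had -0.15 in liver and -0.23 in lung, and neither passed.

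Genes of the endosome and of interferon-gamma signalling did not share one direction. Of 17 endosomal processing genes 0 were called in lung, and in liver 3 rose and 2 fell, against 6.02% and 7.62% of all genes. The liver changes were 0.96 for Ctsz and 0.35 for Ctsb, both cathepsin genes, 0.32 for the intramembrane protease gene Sppl2a, whose product cuts the last remnant of the invariant chain, -0.73 for the cathepsin gene Ctsc and -0.50 for Marchf8, a ubiquitin ligase gene. Their adjusted p ran from 4.51e-06 to 0.0235. The call of Ctsb was lost without virgin pool 1 (0.32, adjusted p = 0.0568), with the mean of all its probe sets (0.136) and with both pool 3 arrays left out (0.0657). Ctss, the cathepsin that trims the invariant chain, had -0.05 in lung and -0.12 in liver. Of 13 measured interferon-gamma genes 0 were called in lung and 2 fell in liver, against 7.62% of all genes called lower there. Gbp2, a guanylate-binding protein gene induced by interferon, had nearly the same value in both tissues, -0.68 ± 0.17 in lung (adjusted p = 0.103) and -0.69 ± 0.17 in liver (adjusted p = 0.0139). Its liver call was lost without virgin pool 2 or 3 or pregnant pool 2 (adjusted p from 0.0567 to 0.0641). Il18, a cytokine gene, fell by 0.82 in liver. Ifng itself lay between 2.63 and 2.81 in all groups, below the median of all probe sets.

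The class I presentation list, whose members lie partly among the class II genes, had negative differences too. Of 14 measured genes 12 were negative in lung (median -0.15) and 12 in liver (median -0.13), against 52.5% and 51.7% of all genes. In lung 0 were called; the transactivator gene Nlrc5 had -0.50 (adjusted p = 0.278) and the peptide transporter gene Tap1 -0.42 (0.256). In liver Psmb10, an immunoproteasome gene, fell by 0.43 (adjusted p = 0.0195), a call lost without virgin pool 2 or pregnant pool 1 or 2 (0.0544 to 0.0858). Psmb8, which lies between H2-DMb1 and H2-Ob, had -0.35 in lung and -0.37 in liver. Of 9 costimulation genes 0 were called in lung. In liver Relb, an NF-kappa-B family gene of mature dendritic cells, rose by 0.44 and Cd83 fell by 0.45 (adjusted p = 0.0339 and 0.0261). The call of Relb was lost without virgin pool 1 or 3 or pregnant pool 2 or 3 (adjusted p from 0.0691 to 0.129). That of Cd83 was lost without virgin pool 1 or 3 or pregnant pool 1 or 2 (0.0516 to 0.0987). Both were lost with both pool 3 arrays left out (0.183 and 0.117).

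Markers of the cells that carry class II gave no call in lung, and their signs differed between lists. Of 11 leukocyte genes 10 had a positive lung difference (median 0.13), of 13 macrophage and monocyte genes 12 (median 0.15) and of 17 conventional dendritic cell genes 10 (median 0.09), with 0 called in each list. Over all genes 47.5% had a positive and 52.5% a negative lung difference. The alveolar type II list had a median of 0.03 with 0 of 8 called, and the alveolar macrophage list 0.18 with 0 of 5 called. The B cell list had 7 of 10 negative, a median of -0.05 and 0 called. Itgax, the integrin gene that marks dendritic cells and alveolar macrophages, had 8.44 in virgin and 8.46 in pregnant lung, and Irf8 8.21 and 8.06. The mean of Cd74, H2-Aa, H2-Ab1 and H2-Eb1 minus the mean of the leukocyte genes was 1.99, 2.09 and 2.21 in virgin and 1.81, 1.47 and 1.63 in pregnant lung. On this measure every pregnant pool lay below every virgin pool, with a mean difference of -0.46, a description given without a test. The leukocyte mean itself was 0.13 higher in pregnant lung, which is part of that difference. The same measure over all genes is not given, and the part of cell content in the lung change was not tested.

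In liver the leukocyte genes had differences of the same sign as class II. All 11 had a negative difference (median -0.24), none was called, and 10 of 13 macrophage genes and 5 of 5 Kupffer cell genes were negative as well. Over all genes 51.7% had a negative liver difference. Timd4, a receptor gene of resident Kupffer cells, fell by 0.64 (limma adjusted p = 0.00922). The mean leukocyte level was 7.45, 7.79 and 7.61 in virgin and 7.19, 7.24 and 7.67 in pregnant liver, so pregnant pool 3 again lay with the virgin pools. The 4 presenting genes had means of 9.12, 9.66 and 9.64 in virgin and 8.53, 8.56 and 9.45 in pregnant liver. Their level minus that of leukocyte genes was 1.67, 1.87 and 2.02 in virgin and 1.34, 1.32 and 1.78 in pregnant liver, and these groups overlapped. The part of leukocyte content in the liver change was not tested. Among conventional dendritic cell genes Mgl2, a lectin receptor gene, rose by 0.68 and Dpp4, which hepatocytes also express, fell by 0.74 in liver. The Mgl2 level in virgin liver, 4.24, lay below the median of all probe sets. The call of Mgl2 was lost without virgin pool 1 or 2 or pregnant pool 3 (adjusted p from 0.0841 to 0.145). Of 10 measured B cell genes, Ighm, the mu heavy chain gene, fell by 1.57 and Pax5 by 0.37 in liver, with Ighm at 10.44 in virgin and 8.86 in pregnant liver. The Ighm value came from a probe set with a shared-sequence suffix. With such probe sets left out it had -0.02 (adjusted p = 0.935), and with the mean of all its probe sets -0.18 (0.115). The Pax5 call was lost with that mean (-0.14, 0.418), without virgin pool 1 or 3 or pregnant pool 1 (0.0583 to 0.102) and with both pool 3 arrays left out (0.101). Of the 5 alveolar macrophage genes, Chil3 rose by 1.81 and Car4 fell by 0.48 in liver. Chil3 had 4.04 in virgin liver, below the median of all probe sets, and 5.85 in pregnant liver. Car4 had 3.15 and 2.68, too low to establish a signal over background. Car4 lost its call without virgin pool 1 or 3 or pregnant pool 1 or 3 (adjusted p from 0.0532 to 0.112) and with both pool 3 arrays left out (0.218). Ly6d rose by 0.94 there among the 14 plasmacytoid genes and Ahsg, a secreted liver protein gene, by 0.37 among 9 hepatocyte genes, a call lost without virgin pool 1 (adjusted p = 0.0504). Of the 20 list genes called in liver that were candidates for naming, 11 were called in every fit without 1 liver array. Sppl2a, also called but named after its values were seen, is not among the 20. With both pool 3 arrays left out 15 of the 20 were called and all 20 kept their sign. Of 10 T cell genes 0 were called in either tissue, as were 0 of 8 alveolar type II genes.

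**Figure D4:**
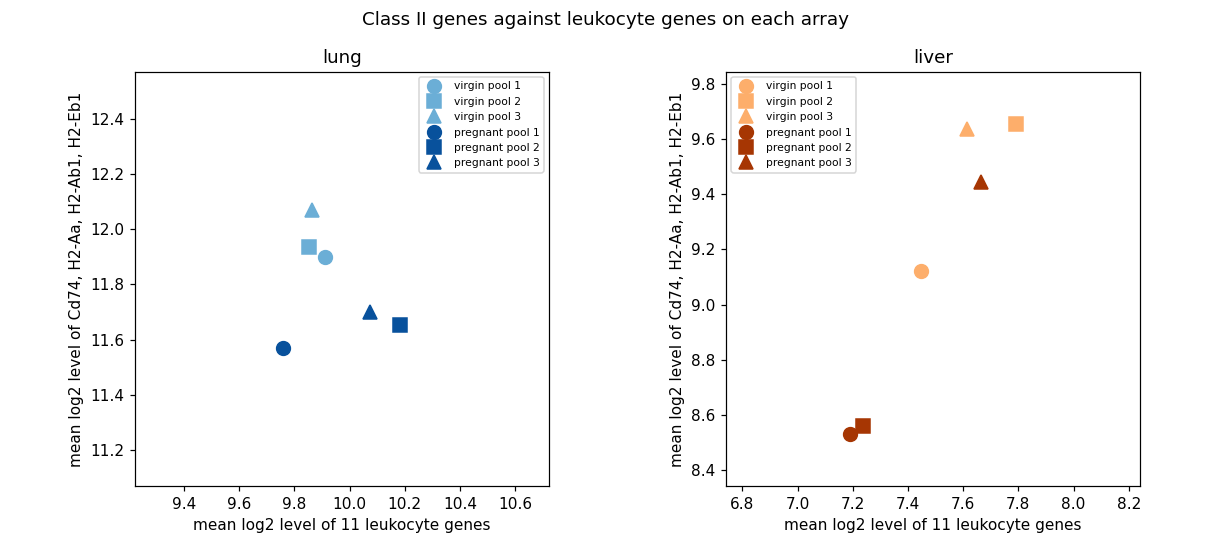
Mean log2 level of Cd74, H2-Aa, H2-Ab1 and H2-Eb1 (vertical axis) against the mean log2 level of 11 leukocyte genes (horizontal axis) on each array, lung left and liver right, with equal steps on both axes. Pregnant lung pools (11.57 to 11.70) lie below virgin pools (11.90 to 12.07), with leukocyte levels of 9.76 to 10.18 and 9.85 to 9.91, while in liver the arrays with low class II levels, pregnant pools 1 and 2, also have the lowest leukocyte levels.

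The genes whose levels ran most like those of the presenting genes were sought among 9404 others with a mean level of at least 6 in a lung group. Likeness was the Pearson correlation, over the 12 arrays, of deviations from the tissue mean with the mean deviation of Cd74, H2-Aa, H2-Ab1 and H2-Eb1. The highest were Tmsb10 (0.960), Nudt14 (0.957), Atp5g2 (0.947), Jpt2 (0.934), Ube2l6 (0.931) and Atp6v0e2 (0.931). The mean deviation ran from -0.63 to 0.50 in liver and from -0.24 to 0.27 in lung, and the genes share arrays and normalization, so no p is given. Tmsb10, which encodes a thymosin, had -0.06 in lung and -0.16 in liver, and neither passed. Ube2l6, a ubiquitin-like conjugation gene induced by interferon, had -0.15 in lung and fell by 0.54 in liver (limma adjusted p = 0.0143). Among the 10 genes themselves the correlation with that mean was 0.89 for H2-DMa and 0.68 for H2-Ob. It was 0.33 for Ciita, -0.05 for Siglech, -0.40 for H2-Oa and -0.83 for H2-DMb2. The H2-DMb2 value came from its own brightest probe set, with mean levels of 4.92 and 5.01 in lung and 4.90 and 5.12 in liver. The brighter probe set shared with H2-DMb1, at -0.32 in lung and -0.26 in liver, was not part of this comparison.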

How the data were processed

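Per the submitters' processing notes, the authors computed the deposited log2 expression values with RMA (background correction, normalization between arrays, probe set summary), with the affy package named and no version given. Which arrays were normalized together is not given in the sources used here. After removal of 64 control probe sets, 34945 carried a single platform symbol, 932 carried more than 1 and 9160 carried none. The probe set with the highest mean over the 12 arrays stood for its gene. All 12 arrays entered 1 limma fit (version 3.58.1, R 4.3.3) with a mean for each of the 4 groups, 8 residual and 5.6 prior degrees of freedom; genes were called at a Benjamini-Hochberg adjusted p under 0.05. The same fit over all 45037 probe sets gave the values of further probe sets. Nothing was filtered in these fits. The number of arrays limits the precision, and p-values measure the spread between pools.

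The members, lists, tests and alternatives were chosen with earlier results of these data known. All members are named. Of each list the called genes with the largest changes (up to 4) or the 2 with the smallest p are candidates for naming in each pregnancy comparison; Sppl2a, Ctss, Rfx5, Itgax, Irf8, Klra17, Ifng and Psmb8 were named after their values were seen. The alternatives, from probe set choice to normalization, spread model, blocks and left-out arrays, changed 1 choice at a time, except that a variance trend and robust moderation were tried together. The fit was tested on simulated data with known changes.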

Additional observations from a re-analysis of the deposited data

Results flagged for a closer look

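No group held enough arrays for a test of single outlying pools. None of the 10 genes passed the test of a difference between the tissues' changes. Of the 169 other genes on the pathway and marker lists, 10 did (limma adjusted p under 0.05, lung change minus liver change on the log2 scale). That is no larger a share than the 6.71% of all genes that passed. The difference was 0.78 for Nfyb, -0.48 for Ctsb, -0.86 for Ctsz, 0.85 for Ctsc and 0.90 for Il18. It was 0.85 for Dpp4, -1.01 for Ly6d, 0.55 for Mrc1, 1.15 for Ighm and -1.48 for the chitinase-like gene Chil3. Chil3 rose by 1.81 in liver (adjusted p = 1.28e-06) and had 0.32 in lung (0.467). Its virgin liver level of 4.04 lay below the median of all probe sets. The Ighm difference was 0.17 with the mean of all its probe sets (adjusted p = 0.382) and 0.27 without suffixed probe sets (0.333), and did not pass there. Of 12 fits without 1 array, Mrc1 was called in 2, Ctsb in 5 and Ly6d in 6, and with both liver pool 3 arrays left out none of these 3 was called (adjusted p from 0.0504 to 0.0783). Over the 11 alternatives other than fits without 1 array, Mrc1 was called in 5 and Ctsb in 6.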

How the results depend on the processing

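The alternatives gave 4598 values for the 10 genes and the candidates for naming. Of these values 4300 kept sign and side of the threshold, and 95 gained and 109 lost a call with the sign kept. A further 94 changed sign, 90 of them not called before or after. The sign of H2-DMa in the lung minus liver change, of H2-Oa and H2-DMb2 in lung, of Ciita in liver and in the lung minus liver change and of H2-DMb2 between virgin tissues was among these. With probe sets of shared-sequence suffix left out, called values changed sign: Rfxank in liver had 0.17, and virgin lung minus virgin liver was -1.19 for Laptm5 and -0.051 for Nfya. With the mean of all probe sets, Tap1 had -0.14 between the virgin tissues. Cd74, H2-Aa and H2-Ab1 have only suffixed probe sets, so 7 of the 10 genes remain there, and 9 remain with dim probe sets left out.

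In lung, the count of the 10 genes called was 0 except with array weights (1), and 0 without each array. Its median was -0.47 without suffixed probe sets and -0.44 to -0.28 without each array. Of the 169 list genes, 0 were called, but 1 with dim probe sets left out, 1 with the mean of all probe sets, 3 with a variance trend and robust moderation together, 5 with array weights and 0 to 2 without each array.

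In liver, the count of 1 became 0 with only the 2 groups and without suffixed probe sets, 2 with dim probe sets left out and with array weights, 4 with liver pools 3 as a batch, 4 with both left out, and 0 to 5 without each array. Shares of all genes called are not given for these alternatives, so these counts have no background beside them. The pool number as a replicate block gave 4 in liver (adjusted p for Cd74 0.0169). The numbers are not taken as pairs, since deviations of same-numbered virgin and pregnant pools correlated at -0.006 to 0.096 in lung and -0.110 to 0.108 in liver. The sample titles do not say whether lung and liver pools came from the same mice. Deviations of same-numbered lung and liver pools correlated at -0.037 to 0.106 in virgin and -0.021 to 0.019 in pregnant mice. The liver median was -0.13 with the mean of all probe sets, 0.082 without suffixed ones, -0.45 with both pools 3 left out and -0.47 to -0.18 without each array. Fewer genes are measured without suffixed probe sets; otherwise the cause was not tested.

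For the lung change minus the liver change, the count of 0 was 0 to 2 without each array. The median was -0.32 with the mean of all probe sets, -0.33 without suffixed ones and -0.19 to 0.027 without each array. Of the list genes 10 were called, 16 with dim probe sets left out and 18 with a variance trend and robust moderation together. The virgin lung minus liver median of 1.73 was 2.16 without dim probe sets, 1.26 with the mean of all probe sets, 0.92 without suffixed ones and 1.58 to 1.88 without each array. The count of 8 called there ran from 6 to 10 over the alternatives.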
